A study of Mus musculus with 24 samples.

Results

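Gene expression in the dentoalveolar complex (DAC) was compared between ovariectomized mice given estradiol (OVXE2) and mice whose ovaries were left in place (Sham). The DAC is the alveolar bone collected together with its teeth after the soft tissue had been cleaned off. The comparison used the 4 DAC libraries titled OVXE2 and the 4 titled Sham, 8 of the 24 libraries of the series. The other libraries were 4 of the DAC after ovariectomy with vehicle (OVX) and 12 of gingiva from the same 3 kinds of mice. Both groups were wild-type female C57BL/6J mice, 11 weeks old at the start. Surgery, a sham operation or removal of both ovaries, was on day 0. From day 4 the OVXE2 mice received 1 µg of estradiol benzoate per day under the skin in 100 µL of corn oil, while Sham and OVX mice received vehicle. All groups, Sham included, had a silk ligature tied around the second molars of both sides of the upper jaw on day 7, which induces periodontitis, and were killed on day 14. A difference between OVXE2 and Sham therefore sets an external, constant dose of estradiol without ovaries against intact ovaries, with periodontitis on both sides. Each library is titled a biological replicate, without a statement that it came from an animal of its own, so p-values measure the spread between these samples. Libraries are called Sham 1 to Sham 4 and OVXE2 1 to OVXE2 4 by the replicate number in their titles, and values are given in that order.

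Alveolar bone encloses marrow, which makes B lymphocytes, neutrophils and the other blood cells, and carries osteoblasts, osteoclasts, osteocytes, vessels and the periodontal ligament. Estradiol acts through nuclear receptors that bind DNA at estrogen response elements, and the progesterone receptor gene (Pgr) is a classical target of them in the reproductive tract. Raised estrogen, as in pregnancy or under treatment, is known to reduce B cell precursors in mouse bone marrow, while loss of the ovaries is known to increase them and to increase bone resorption.

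The 4 Sham libraries held 14771830 to 24923126 gene counts and the 4 OVXE2 libraries 23697984 to 27302805. The OVXE2 libraries were deeper on average, although the two-sided exact permutation test over 70 relabellings gave p = 0.0571. The share of counts on the other strand than the one used was 3.69 to 8.81% in Sham and 3.48 to 6.57% in OVXE2 (exact permutation p = 0.257). The collagen gene Col1a1, the main product of osteoblasts, had the highest count in all 8 libraries, and the defining genes of osteoblasts, osteoclasts and odontoblasts were present in each. No 2 libraries of a group were copies of each other, with a chi-square per degree of freedom of 25.8 to 151 between pairs. Genes varied more between OVXE2 libraries than between Sham libraries, with a median standard deviation of 0.261 against 0.187 on the log2 CPM scale. CPM are counts relative to the library total after TMM scaling.

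Of 13617 genes tested, 143 changed between OVXE2 and Sham at an adjusted p under 0.05 by edgeR's quasi-likelihood test with Benjamini-Hochberg adjustment, which is 1.05% of them. A total of 53 genes (0.389%) rose in OVXE2 and 90 (0.661%) fell. Among genes that rose, 16 did so by at least 2-fold, and among genes that fell, 58 did. The median log2 change was 0.77 for the genes that rose and −1.34 for those that fell. All 143 had 4 values in one group above all 4 of the other, which held for 2.63% of the genes tested in the higher and 2.78% in the lower direction. An unadjusted p under 0.05 was reached by 4.17% of genes with higher and 4.6% with lower values. Without regard to a test, 49.4% of genes were higher in OVXE2 and 50.6% lower. The 164 tested genes on lists of blood cell genes held 27 that fell and 2 that rose. Among the 124 tested genes on lists of bone, tooth, vessel and marrow stroma genes, 5 rose and 0 fell by edgeR. An unadjusted p under 0.05 with lower values was reached by 3 of these 124, and DESeq2 called 1 of them as falling. The 12883 tested genes on none of the lists held 39 that rose and 58 that fell.

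The number of genes past the test depended on single libraries. It was 61, 89, 79 and 93 without Sham 1, 2, 3 and 4, and 74, 70, 164 and 73 without OVXE2 1, 2, 3 and 4. In every one of the 12 fits that left out a library, OVX libraries included, 53 of the 143 genes were called, of which 20 rose and 33 fell. With only the 8 Sham and OVXE2 libraries in the fit 64 genes passed, 60 of them among the 143, whereas DESeq2 on all 12 DAC libraries called 340, including each of the 143. Called in all 12 fits without a library and in all 12 other settings were 15 genes, of which 7 rose (Pi15, A2m, Trpc6, Asb4, Aldh1a2, Mgl2 and Whrn) and 8 fell (Vpreb3, Fcrla, Cd79a, Pou2af1, Spib, Fam129c, Lrmp and Map4k1).

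**Figure D1:**
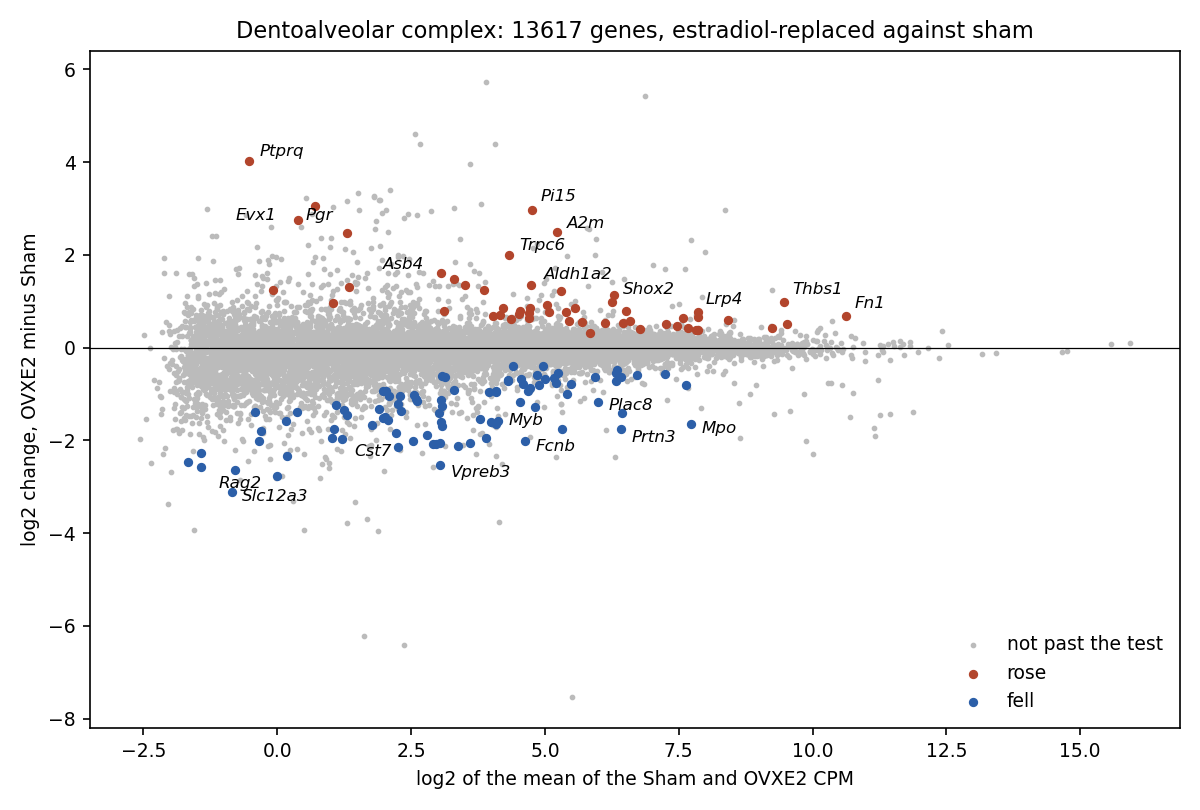
Log2 of the mean of the Sham and OVXE2 CPM (horizontal) and log2 change of OVXE2 against Sham (vertical) for the 13617 genes tested. The 53 genes that rose and the 90 that fell are coloured. Among genes whose mean log2 CPM over the 8 libraries was at least 1, Pi15 (2.97) and A2m (2.49) had the largest rises of the genes named. Vpreb3 (−2.52) had the largest fall of these.

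Many genes of the B lineage were lower in OVXE2. Of 12 tested genes of B cell precursors 7 fell and none rose, with a median log2 change of −1.80 over the list against 0.00 over all genes tested. The subunits Rag2 and Rag1 of the enzyme that cuts DNA for antigen receptor recombination, an assembly partner of immunoglobulin chains in the precursor stage (Vpreb3), the lineage factor Pax5 and both signalling chains of the B cell receptor, Cd79a and Cd79b, were among the 7. In bulk tissue, fewer cells of a type and less RNA per cell cannot be told apart. Vpreb3 (ENSMUSG00000000903, chromosome 10, 75943057 to 75949657, build GRCm38) had 17.2, 12.4, 13.9 and 12.5 CPM in Sham and 2.11, 2.38, 2.52 and 2.74 CPM in OVXE2. The lowest Sham library was thus more than 4 times the highest OVXE2 library, and the log2 change was −2.52 ± 0.18 (SE; edgeR adjusted p = 0.000149). The OVX libraries, which had no ovaries and no estradiol, held 16.7, 25.6, 24 and 17.3 CPM.

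Rag2 had 2.18, 1.28, 1.89 and 1.6 CPM in Sham and 0.387, 0.298, 0.18 and 0.14 CPM in OVXE2, a log2 change of −2.76 ± 0.31 (edgeR adjusted p = 0.00149). Its neighbour Rag1 had 9.74, 9.3, 7.77 and 4.46 CPM against 1.51, 2.16, 0.585 and 2.74 CPM (log2 change −2.15 ± 0.42, edgeR adjusted p = 0.0352). The Rag1 groups did not overlap, but Sham 4 lay closest to OVXE2, and the call was lost without Sham 1, 2 or 3, or OVX 2, 3 or 4, or OVXE2 1 or 2 (adjusted p up to 0.122). Pax5, which commits cells to the lineage, had 16.8, 12.1, 15 and 9.34 CPM against 2.49, 4.32, 1.84 and 4.14 CPM, a change of −2.05 ± 0.28 log2 units (edgeR adjusted p = 0.00635). Cd79a had 28.4, 19.9, 29.2 and 17.2 CPM in Sham and 5.8, 5.99, 5.44 and 7.37 CPM in OVXE2 (log2 change −1.94 ± 0.23). Sham 1 and Sham 3 were the highest libraries for Cd79a and Cd79b, and Sham 1 for Pax5. No OVXE2 library reached the lowest Sham library for any of the 7 genes. The other 5 tested genes of the list did not pass the test. Their log2 changes were −0.63 for Bach2, −0.50 for Lef1, −0.24 for Cd24a, −0.12 for Bcl11a and −0.02 for Ebf1. Several of these genes are also expressed outside the lineage, and whether that bears on their values was not tested.

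On the list of mature B and plasma cells, 3 of 10 tested genes fell and the median was −0.53. They were the transcriptional coactivator Pou2af1, the transcription factor Spib and the Fc receptor-like gene Fcrla, which mature B cells share with earlier stages. Pou2af1 had 22.7, 19.4, 20.2 and 15.5 CPM in Sham and 3.72, 5.7, 3.91 and 5.44 CPM in OVXE2 (log2 change −2.05 ± 0.16, edgeR adjusted p = 0.000158). Fcrla had 14.3, 11.8, 12 and 10.8 CPM against 2.46, 2.49, 2.47 and 4.14 CPM, with OVXE2 4 above the other 3 OVXE2 libraries, a log2 change of −2.07 ± 0.18. Spib had 27.9, 24.4, 25 and 18.5 CPM against 5.76, 8.86, 6.3 and 10.5 CPM, a log2 change of −1.61 ± 0.19. All 3 kept their call in the 12 fits without a library. The list also held 3 genes that were higher in OVXE2, with log2 changes up to 0.56, of which none passed. At an unadjusted p under 0.05, 4 of the 10 genes were lower and 0 higher. Outside the lists, Fam129c fell from 17.6, 10.5, 13.6 and 9.06 CPM to 2.42, 2.31, 3.51 and 3.75 CPM (log2 change −2.08 ± 0.24, edgeR adjusted p = 0.00149), and the sialic acid-binding receptor Siglecg, an inhibitory receptor of B cells, fell by 1.89 on the log2 scale. Siglecg lost its call without OVXE2 1 (adjusted p 0.0524). In the OVX libraries each of Pax5, Cd79a, Pou2af1, Spib, Rag1 and Rag2 was above the highest Sham library in all 4 libraries, for instance 32.9, 30.5, 32.8 and 33.3 CPM for Pou2af1.

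The promoter of Vpreb3 is shown because this gene had the smallest p among the genes that fell. The window covers chr10:75948050-75948349 on the plus strand, 250 bases before to 50 after the start in RefSeq (GRCm38.p6), which lies 5243 bases from the start in the GENCODE annotation used for the counts. Capitals mark matches to a half-site of the estrogen response element, GGTCA or its reverse complement, which start 238 and 91 bases before the RefSeq start, and to the octamer motif ATGCAAAT or its reverse complement, which starts 45 bases before it.
Vpreb3: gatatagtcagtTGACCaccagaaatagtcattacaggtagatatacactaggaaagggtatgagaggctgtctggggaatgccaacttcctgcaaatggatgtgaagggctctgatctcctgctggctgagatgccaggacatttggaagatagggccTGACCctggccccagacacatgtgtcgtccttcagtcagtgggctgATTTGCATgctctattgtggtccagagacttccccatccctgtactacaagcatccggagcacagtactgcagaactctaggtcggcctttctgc
The octamer is the motif bound by OCT factors, for which Pou2af1 is a coactivator. Over both strands, the octamer was found in 1.74% and the half-site in 40.5% of 32851 RefSeq promoters of this length. These matches are letters in a window and were not tested for binding. The promoters of Pou2af1 and Fcrla held no match to either.

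Genes of immature neutrophils were lower in OVXE2 as well. Of 9 tested genes of primary granules and promyelocytes 7 fell and none rose, and the list median was −1.54. When only the Sham and OVXE2 libraries were fitted, 4 fell. Primary granules are filled at the promyelocyte stage in the marrow, and their transcripts are mainly those of precursors. Myeloperoxidase, Mpo (ENSMUSG00000009350, chromosome 11, 87793581 to 87804413), which makes hypochlorous acid, had 439.6, 403, 261 and 189.7 CPM in Sham and 77.2, 136, 95.1 and 102 CPM in OVXE2. Sham spanned more than a 2-fold range with Sham 4 lowest, yet every Sham library was above every OVXE2 library (log2 change −1.66 ± 0.26, edgeR adjusted p = 0.012). The OVX libraries had 338, 462, 375 and 344 CPM.

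The serine proteases of the same granules followed. Proteinase 3, Prtn3, had 176, 149.8, 111 and 91.4 CPM in Sham and 26, 41.4, 53.2 and 34.9 CPM in OVXE2, a log2 change of −1.77 ± 0.28 (edgeR adjusted p = 0.012, and 0.0532 without OVXE2 4). Neutrophil elastase, Elane, had 179, 142, 106 and 79 CPM against 37.4, 59.9, 49.9 and 41.9 CPM, a log2 change of −1.42 ± 0.25 (edgeR adjusted p = 0.0227). Cathepsin G, Ctsg, had 78.5, 74, 48.5 and 46.9 CPM against 12.1, 19.6, 25.3 and 16.3 CPM, a log2 change of −1.76 ± 0.26. For each of the 3 proteases Sham 4 was the lowest Sham library. Per kilobase of exon, the mean Sham levels were 129 CPM for Elane, 94.4 for Mpo, 76.3 for Prtn3 and 59.98 for Ctsg, against 16.3 for Vpreb3 and 16.2 for Cd79a. Ficolin B, Fcnb, a lectin of these granules, had 44.5, 50.6, 42.3 and 22 CPM in Sham and 6.04, 12.2, 12.9 and 8.63 CPM in OVXE2 (log2 change −2.0 ± 0.29, edgeR adjusted p = 0.00901). Cebpe, the factor for the step from promyelocyte to myelocyte, had 23.2, 27.4, 18.6 and 13 CPM against 5.38, 6.03, 9.72 and 7.12 CPM (log2 change −1.54 ± 0.26). Igsf6 had 47.3, 54.2, 42.8 and 41 CPM against 23.7, 26.5, 28.5 and 30.9 CPM, the smallest change of the 7 at −0.76 ± 0.11. The remaining members, Prss57 and Gfi1, had log2 changes of −1.23 and −0.97 and did not pass. The calls depended on the libraries used: Elane was lost without Sham 1 or 2, or OVXE2 1 or 4 (adjusted p up to 0.0818), Cebpe without Sham 1, or OVXE2 1, 2 or 4 (up to 0.0652), and the count of members that fell was 5, 6 and 4 without OVXE2 1, 2 and 4, 5 and 6 without Sham 1 and 2, and 9 without Sham 4.

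Genes of later neutrophil stages were on 2 further lists, whose difference from the primary granule list was not tested. Of 10 tested genes of secondary granules and myelocytes 1 fell, the leukotriene receptor gene Ltb4r1 (log2 change −0.71 ± 0.13). The list median was −0.70, 7 members were lower at an unadjusted p under 0.05, and DESeq2 called 4. The number that fell ranged from 0 to 2 over the 12 fits without a library. It was 0 with only the Sham and OVXE2 libraries and with the other-strand share as covariate. Of 10 tested genes of mature neutrophils none passed by edgeR or by DESeq2, with a median of −0.51 and 5 members lower at an unadjusted p under 0.05. S100a8, the abundant calcium-binding protein of mature neutrophils, had 1501, 1897, 1497 and 1632 CPM in Sham and 641, 704, 1597 and 904 CPM in OVXE2. The groups overlapped, since OVXE2 3 stood among the Sham libraries, and the log2 change of −0.76 ± 0.26 did not pass (edgeR adjusted p = 0.335). Without OVXE2 3, 3 genes of the mature neutrophil list fell.

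Other blood cell lists held single genes that fell. Among 15 tested genes of blood progenitors, Myb and Flt3 fell and the list median was −0.13. Myb, a transcription factor of progenitors and B cell precursors, had 34.5, 29.7, 22.9 and 18.3 CPM in Sham and 7.13, 11.8, 5.94 and 10.2 CPM in OVXE2 (log2 change −1.58 ± 0.24, edgeR adjusted p = 0.00921). Flt3, a receptor of lymphoid and dendritic cell progenitors, had 6.87, 5.19, 5.58 and 5.21 CPM against 2.21, 3.5, 2.65 and 2.81 CPM (log2 change −1.03 ± 0.18), with its call lost without Sham 1 or 3, or OVXE2 1 or 4 (adjusted p up to 0.0811). Neither Myb nor Flt3 was called in the fit of only the Sham and OVXE2 libraries, where 0 blood progenitor genes fell. Of 15 erythroid and 11 megakaryocyte genes none passed, with list medians of −0.11 and −0.25. No erythroid gene and 1 megakaryocyte gene had an unadjusted p under 0.05, and DESeq2 called 0 and 0.

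Of 25 tested genes of T cells and NK cells 2 fell, with a median of −0.87 and 10 members lower at an unadjusted p under 0.05. Neither call held in the fit of only the Sham and OVXE2 libraries, where 0 genes of this list fell. Nkg7, a granule membrane protein of cytotoxic cells, had 18.6, 12.6, 10.5 and 9.86 CPM in Sham and 2.74, 5.77, 4 and 3.58 CPM in OVXE2 (log2 change −1.68 ± 0.25, edgeR adjusted p = 0.00901). The adhesion molecule Cd2 had 4.89, 2.63, 3.69 and 3.15 CPM against 1.48, 0.856, 1.21 and 1.72 CPM (log2 change −1.44 ± 0.29), and its call was lost without Sham 1, 3 or 4, or OVX 1 or 4, or any 1 OVXE2 library (adjusted p up to 0.124). Cystatin F, Cst7, an inhibitor of the proteases of cytotoxic and myeloid cells, fell from 12.6, 9.3, 8.45 and 6.81 CPM to 1.97, 2.05, 3.19 and 1.96 CPM (log2 change −2.02 ± 0.23, edgeR adjusted p = 0.00177). Klrb1b, a lectin-like receptor of NK cells, fell from 3.23, 2.05, 3.59 and 4.09 CPM to 0.633, 0.633, 0.99 and 1.09 CPM (log2 change −1.95 ± 0.31, lost without OVXE2 1 or 2 at an adjusted p up to 0.0527). Lrmp and Map4k1, both expressed in lymphocytes, had narrow OVXE2 groups. Lrmp had 48, 41.7, 36.7 and 33 CPM against 16.2, 16.9, 15.9 and 17 CPM (log2 change −1.27 ± 0.11), and Map4k1, a kinase of antigen receptor signalling, had 13.3, 12.8, 10.9 and 9.11 CPM against 5.34, 5.03, 5.31 and 5.23 CPM (log2 change −1.14 ± 0.12).

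Of 12 dendritic cell genes Cd209a, Ccr7 and Flt3 fell, with a list median of −0.41. When only the Sham and OVXE2 libraries were fitted, 0 genes of this list fell. Cd209a, a lectin of monocyte-derived dendritic cells, had 7.52, 4.75, 9.95 and 7.04 CPM in Sham and 1.23, 1.45, 3.01 and 2.53 CPM in OVXE2 (log2 change −1.83 ± 0.30, edgeR adjusted p = 0.0149). Its call was lost without Sham 1, or OVXE2 2 (adjusted p up to 0.0565), and that of Ccr7, the receptor for homing to lymph nodes, without Sham 1, 3 or 4, or OVXE2 1, 2 or 4 (up to 0.108). Of 6 monocyte genes Ccr2, the receptor that brings monocytes out of marrow, fell from 73.6, 51.6, 46.8 and 53.9 CPM to 22.6, 30.6, 28.5 and 31.4 CPM (log2 change −1.0 ± 0.19), a call lost without Sham 1, 2 or 4, or any 1 OVXE2 library (adjusted p up to 0.109). The monocyte list had a median of −0.34, with 4 members lower and 2 higher. At an unadjusted p under 0.05, 3 were lower and 1 was higher, and DESeq2 called 2 as falling and 1 as rising. Of 11 genes of mast cells, basophils and eosinophils, Siglecf, a receptor of eosinophils, and Fcer1a, a chain of the IgE receptor, fell, with a list median of −1.46 and 8 members lower at an unadjusted p under 0.05. Siglecf had 4.04, 3.46, 3.2 and 2.21 CPM against 0.843, 0.745, 0.945 and 1.3 CPM (log2 change −1.75 ± 0.32, lost without Sham 1, 2 or 3, or OVXE2 1, 2 or 3 at an adjusted p up to 0.0975). The Fcer1a call (log2 change −1.59 ± 0.32) held, of the 12 fits without a library, in the one without OVXE2 3, and the adjusted p reached 0.15 in the others.

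Macrophage genes that passed were higher in OVXE2. Of 19 tested genes of tissue macrophages 2 rose, 0 fell by edgeR and the list median was 0.00. Mgl2, a galactose-binding lectin of resident and alternatively activated macrophages, had 9.25, 8.08, 9.47 and 7.84 CPM in Sham and 21.2, 19.1, 21.2 and 20.3 CPM in OVXE2. All 4 OVXE2 libraries were above all Sham libraries with little spread (log2 change 1.24 ± 0.12, edgeR adjusted p = 0.000601). Siglec1, the sialoadhesin of marrow and lymph node macrophages, had 8.16, 6.73, 5.73 and 5.26 CPM against 16.1, 21.5, 11.6 and 16.5 CPM (log2 change 1.34 ± 0.25, edgeR adjusted p = 0.0272). OVXE2 3 was nearest to Sham for Siglec1, and Siglec1 no longer passed without any 1 Sham library, or OVXE2 1, 2 or 4 (adjusted p up to 0.104). An unadjusted p under 0.05 with lower values was found for 2 macrophage genes.

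**Figure D2:**
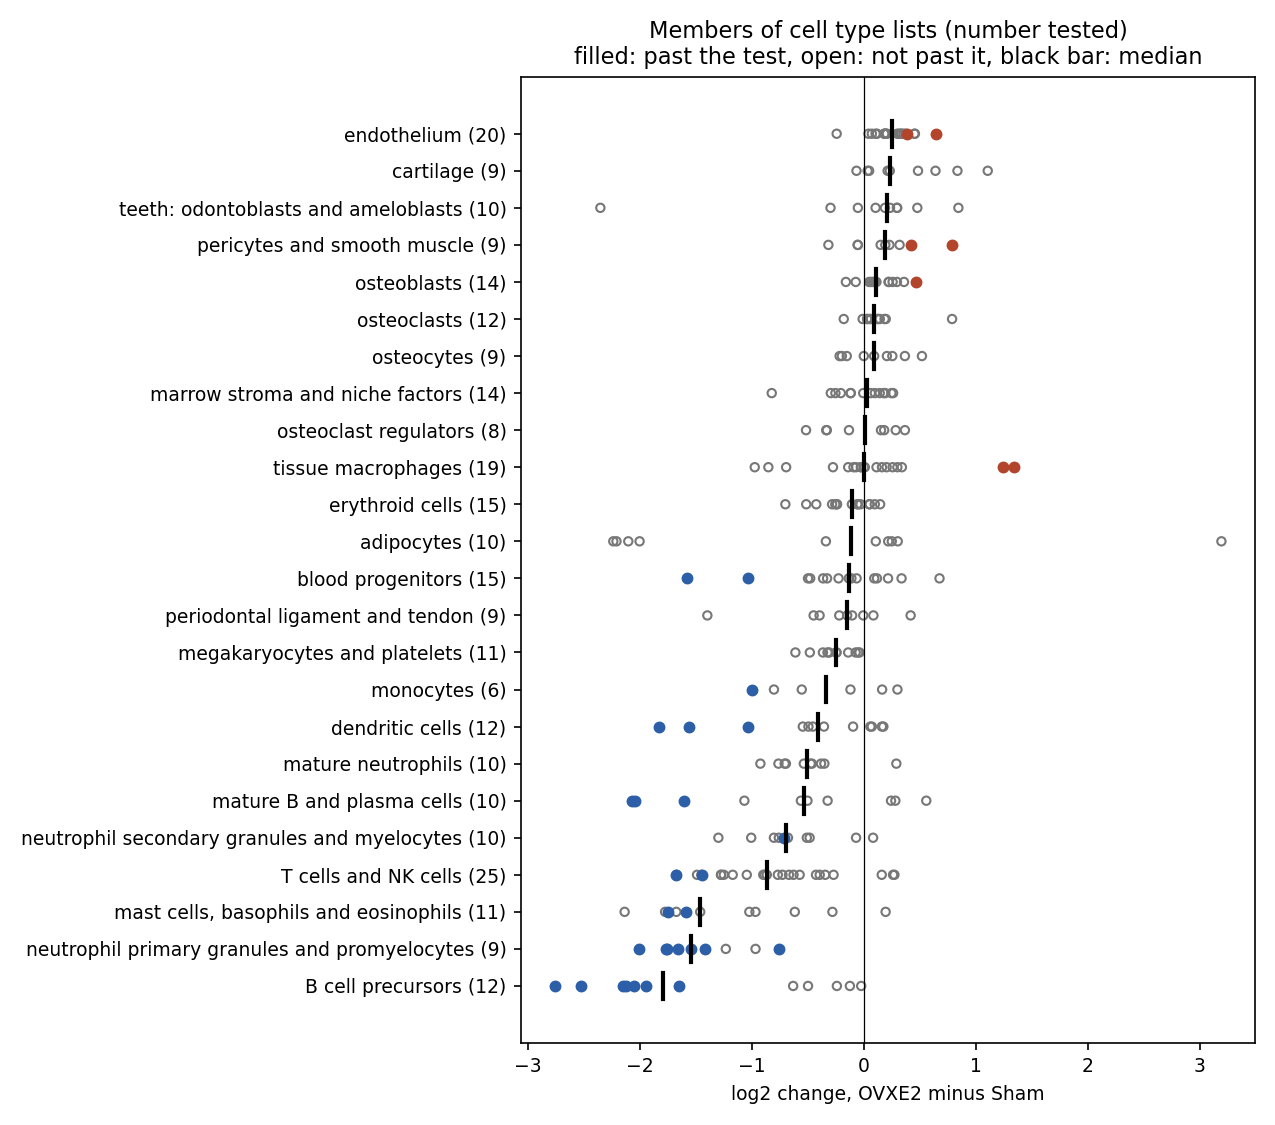
Log2 change of OVXE2 against Sham (horizontal) for the tested genes of each blood cell and stroma list, sorted by list median, with called genes filled and others open. B cell precursors (median −1.80) and primary granule genes (median −1.54) stand at one end, and endothelium (median 0.25) is near the other.

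The secreted proteins Pi15 and A2m, the cation channel gene Trpc6 and Pgr were among the genes that rose. Of 18 tested protease inhibitors 2 rose and 1 fell, with a list median of −0.01. Peptidase inhibitor 15, Pi15 (ENSMUSG00000067780, chromosome 1, 17601901 to 17630939), a secreted protein of the CAP family, had 6.3, 7.12, 5.53 and 5.45 CPM in Sham and 46.5, 58.6, 34.6 and 51.9 CPM in OVXE2. OVXE2 3 was the lowest OVXE2 library and still above 4 times the highest Sham library (log2 change 2.97 ± 0.28, 95% confidence interval 2.35 to 3.60, edgeR adjusted p = 0.000601). Alpha-2-macroglobulin, A2m (ENSMUSG00000030111, chromosome 6, 121635376 to 121679227), a broad inhibitor that traps proteases, had 9.01, 11.2, 12.4 and 12.3 CPM in Sham and 61.5, 77.4, 49.9 and 64 CPM in OVXE2 (log2 change 2.49 ± 0.20, interval 2.04 to 2.94, edgeR adjusted p = 0.000243). Again OVXE2 3 was lowest and OVXE2 2 highest. In OVX, A2m was at 4.75, 4.14, 4.29 and 7.51 CPM, below every Sham library, and Pi15 at 6.11, 3.32, 2.7 and 6.78 CPM. The inhibitor that fell was Cst7, given with the cytotoxic cell genes.

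Trpc6 and Pgr lie next to each other on chromosome 9. Trpc6 (ENSMUSG00000031997, chromosome 9, 8544142 to 8680741), a calcium-permeable channel opened by diacylglycerol, had 8, 9.62, 8.5 and 5.96 CPM in Sham and 34.7, 38.9, 27.6 and 27.7 CPM in OVXE2. The groups stood far apart (log2 change 2.01 ± 0.19, edgeR adjusted p = 0.000601), and it was the 1 gene that passed of 16 tested cation channels. Pgr (ENSMUSG00000031870, chromosome 9, 8899833 to 8968611) had 0.97, 1.03, 0.437 and 0.563 CPM in Sham, 1.24, 0.328, 0.695 and 0.964 CPM in OVX and 6.43, 4.43, 2.25 and 3.61 CPM in OVXE2. Its levels were low and OVXE2 3 was the lowest of its group (log2 change 2.48 ± 0.45, interval 1.48 to 3.48, edgeR adjusted p = 0.0265). Pgr did not pass without any 1 Sham library, or OVXE2 1, 2 or 4, with an adjusted p up to 0.0958. The gap between the 2 genes is 219.1 kb and holds no other gene that was tested. Behind Pgr, the predicted gene Gm16485 had a log2 change of 2.40 (adjusted p = 0.278) and Arhgap42 one of 0.31 (adjusted p = 0.315), and in front of Trpc6, Cep126 had one of 0.46 (adjusted p = 0.793), and none of the 3 passed by edgeR.

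The promoters of the pair are shown because both genes rose and Pgr is a known estrogen target. The RefSeq windows (GRCm38.p6, plus strand, 250 bases before to 50 after the start) are chr9:8899583-8899882 for Pgr and chr9:8543892-8544191 for Trpc6.
Pgr: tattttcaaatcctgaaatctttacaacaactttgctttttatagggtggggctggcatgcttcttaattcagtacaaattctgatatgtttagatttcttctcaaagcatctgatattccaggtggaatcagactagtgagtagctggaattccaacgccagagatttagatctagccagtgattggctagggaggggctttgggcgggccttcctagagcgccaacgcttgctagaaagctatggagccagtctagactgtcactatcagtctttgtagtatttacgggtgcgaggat
Trpc6: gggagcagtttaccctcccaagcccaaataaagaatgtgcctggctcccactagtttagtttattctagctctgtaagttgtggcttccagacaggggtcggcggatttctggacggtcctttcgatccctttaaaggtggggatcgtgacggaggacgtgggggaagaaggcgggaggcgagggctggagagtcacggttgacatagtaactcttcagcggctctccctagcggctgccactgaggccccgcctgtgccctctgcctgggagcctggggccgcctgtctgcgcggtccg
No letters are in capitals since neither window held the full estrogen response element (GGTCA, 3 bases of any kind, TGACC), its half-site GGTCA, the octamer, the motif CCCNNGGG of early B cell factor or the motif GAGGAAG of PU.1 on either strand. The full element occurred in 0.0700% of the 32851 RefSeq promoters and in 0 of those matched to 10012 tested genes. The half-site was in 17 of 37 matched promoters of genes that rose (45.9%), 34 of 70 of genes that fell (48.6%) and 42.6% of those of genes tested. The PU.1 motif was in 27.1% of matched promoters of genes that fell, 21.6% of genes that rose and 16.4% of genes tested. The octamer was in 3 of those that fell (4.29%), 3 of those that rose (8.11%) and 1.75% of those tested, and the motif of early B cell factor in 15.7, 21.6 and 21.4%. These shares are descriptions and were not tested. RefSeq windows near the start do not cover distant sites.

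Aldh1a2, the enzyme that makes retinoic acid in many embryonic and stromal cells, had 14.2, 17.3, 13.6 and 15.2 CPM in Sham and 42.8, 39.6, 37.9 and 33.5 CPM in OVXE2 (log2 change 1.35 ± 0.13, edgeR adjusted p = 0.000601), the 1 gene past the test of 14 on the retinoid list. The homeobox gene Shox2, a regulator of limb and palate development, had 54.9, 46.4, 57.4 and 46.8 CPM against 109, 91.7, 95.1 and 109 CPM (log2 change 0.98 ± 0.10, edgeR adjusted p = 0.000692). Both genes had groups that stood well apart, and Shox2 was at 47.6, 56.3, 53.1 and 46.9 CPM in OVX. Asb4, a subunit of ubiquitin ligases, had 3.47, 4.94, 3.35 and 4.74 CPM against 11.4, 14.4, 13 and 11.5 CPM (log2 change 1.61 ± 0.16). Plppr5, a membrane protein of the lipid phosphatase-related family, had 3.52, 6.28, 5.49 and 5.68 CPM against 14.1, 15.9, 14.4 and 13.9 CPM (log2 change 1.48 ± 0.22). Fam78b had 60.8, 38.8, 49.7 and 47.8 CPM against 107, 107, 111 and 107 CPM (log2 change 1.13 ± 0.12), with 4 nearly equal OVXE2 values. Teneurin 4, Tenm4, a large adhesion receptor, had 22.5, 29.8, 22.7 and 20.4 CPM against 50.8, 71.4, 44.3 and 54.4 CPM (log2 change 1.21 ± 0.17). These 6 genes kept their call without each library in turn.

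Some of the genes that rose were close to absent in Sham. The receptor-type phosphatase gene Ptprq had 0.0808, 0.192, 0.0485 and 0 CPM in Sham and 1.48, 1.75, 0.72 and 1.26 CPM in OVXE2 (log2 change 4.03 ± 0.64, edgeR adjusted p = 0.0123, lost without Sham 1 or 3 at an adjusted p up to 0.0647). The homeobox gene Evx1 had 0.283, 0.705, 0.194 and 0.188 CPM against 2.35, 1.94, 2.79 and 2 CPM (log2 change 2.75 ± 0.51), and its antisense partner Evx1os 0.444, 0.385, 0.0971 and 0.47 CPM against 3.06, 2.72, 3.28 and 2.67 CPM (log2 change 3.05 ± 0.54). The 2 genes overlap on opposite strands, and the counts used were those of a single strand. Evx1 was lost without Sham 1, 3 or 4, or any 1 OVXE2 library (adjusted p up to 0.117), and Evx1os without any 1 Sham library, or OVXE2 1, 2 or 4 (up to 0.0771).

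Whrn (ENSMUSG00000039137, chromosome 4, 63414910 to 63495991), a scaffold protein with PDZ domains known from inner-ear hair cells, had the smallest p among genes that rose. It had 23.6, 20.5, 24.3 and 21.8 CPM in Sham, 20.2, 21.8, 21 and 19.8 CPM in OVX and 42.1, 43.8, 42.7 and 43 CPM in OVXE2 (log2 change 0.93 ± 0.07, interval 0.78 to 1.08, edgeR adjusted p = 0.000149). The 4 OVXE2 values lay within a few percent of each other. Its promoter, the 1 among the 3 genes of smallest p that rose for which RefSeq gave a window, is chr4:63495942-63496241 on the minus strand (GRCm38.p6). Capitals mark a match to CCCNNGGG that starts 111 bases before the start, a motif found in 13.7% of RefSeq promoters and 21.4% of those of tested genes.
Whrn: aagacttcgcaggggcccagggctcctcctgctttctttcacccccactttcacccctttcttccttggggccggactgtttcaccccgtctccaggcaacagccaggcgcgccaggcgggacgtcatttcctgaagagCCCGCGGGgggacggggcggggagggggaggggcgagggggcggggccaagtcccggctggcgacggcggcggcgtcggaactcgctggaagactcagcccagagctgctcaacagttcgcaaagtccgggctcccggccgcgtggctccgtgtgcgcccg

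**Figure D3:**
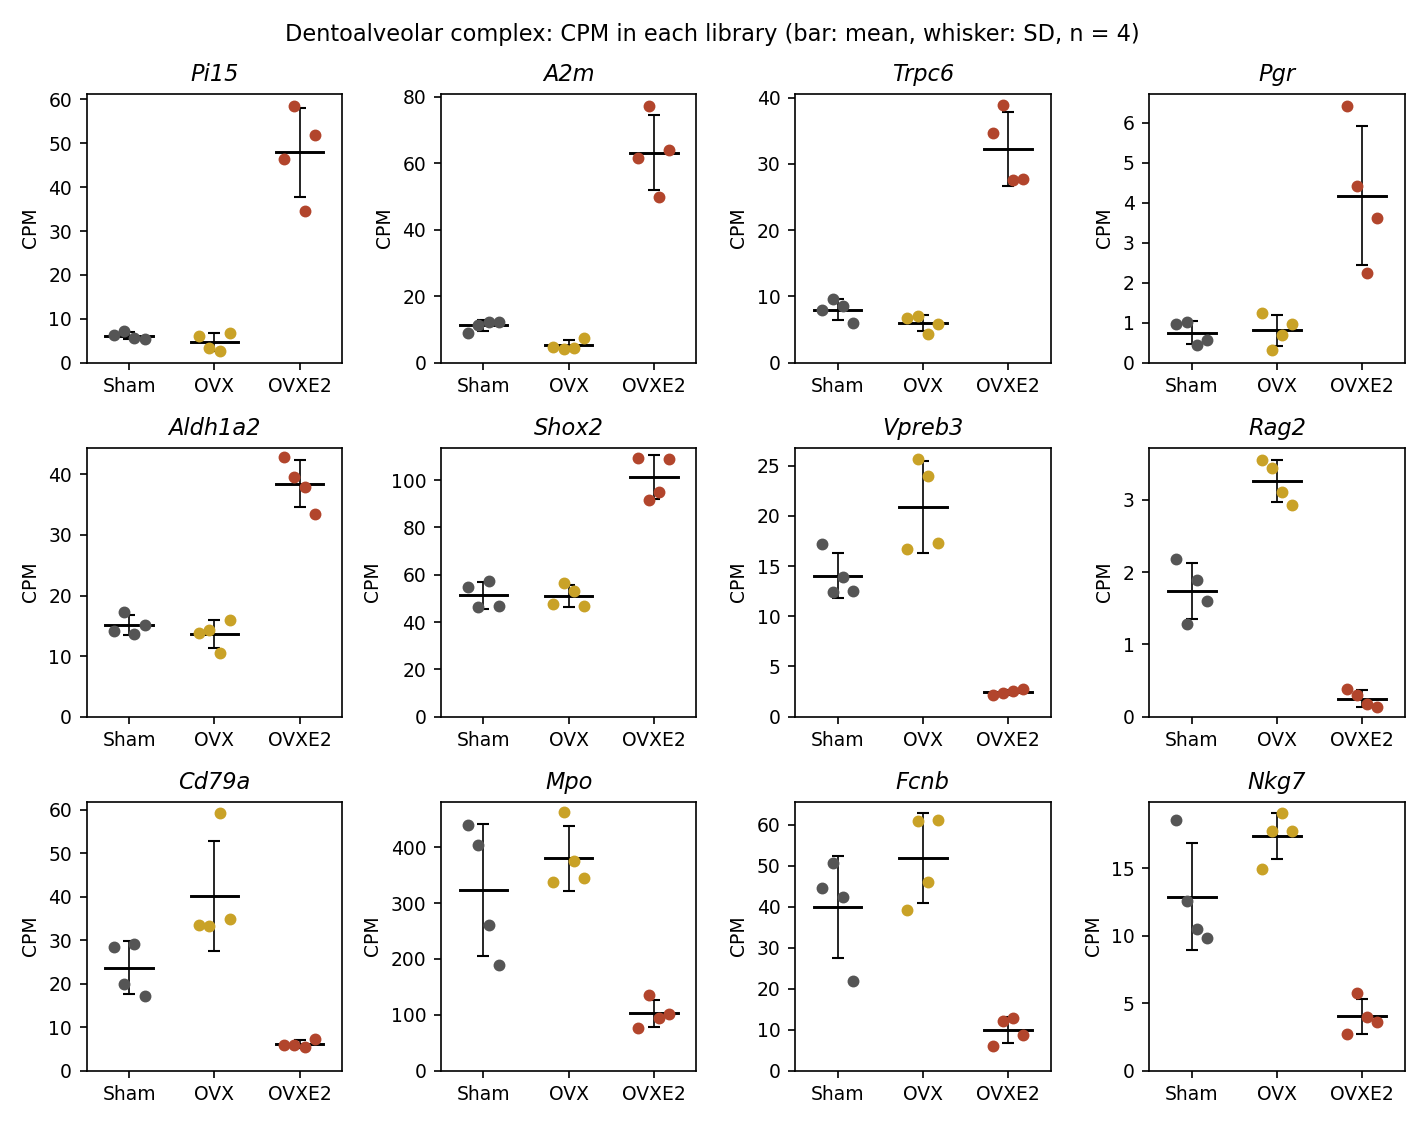
CPM of 12 genes in each library of Sham, OVX and OVXE2, with bars at the mean and whiskers of 1 SD (n = 4 per group). OVXE2 points of Pi15, A2m, Trpc6, Pgr, Aldh1a2 and Shox2 lie above all Sham points, and those of Vpreb3, Rag2, Cd79a, Mpo, Fcnb and Nkg7 below them.

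Thbs1, Plod2, Fn1, Lrp4 and Mef2a rose by less than 2-fold. Thrombospondin 1, Thbs1, a matrix glycoprotein, had 445, 458, 514 and 477 CPM in Sham and 797, 1173, 785 and 993 CPM in OVXE2 (log2 change 0.98 ± 0.14, edgeR adjusted p = 0.00675). Plod2, which hydroxylates collagen lysines for cross-links, had 254, 289, 288 and 256 CPM against 386, 496, 359.8 and 399 CPM (log2 change 0.60 ± 0.10, lost without Sham 1 or 4, or OVXE2 4 at an adjusted p up to 0.074). Fibronectin, Fn1, had 1272, 1272, 1161 and 1175 CPM against 1566, 2426, 2017 and 1769 CPM (log2 change 0.67 ± 0.13), but it no longer passed without any 1 Sham library, or OVX 2 or 3, or OVXE2 2, 3 or 4 (adjusted p up to 0.125). OVXE2 2 was the highest library for Thbs1, Plod2 and Fn1. Of 18 tested collagen genes none passed by edgeR and 2 by DESeq2, although 16 were higher in OVXE2, 8 of them at an unadjusted p under 0.05, with a list median of 0.16. Lrp4, a receptor that binds sclerostin, had 212, 159, 164 and 153 CPM in Sham and 271, 345, 275 and 273 CPM in OVXE2 (log2 change 0.76 ± 0.12, edgeR adjusted p = 0.0123). It was the 1 gene to pass of 31 tested Wnt pathway genes, whose median was −0.03. Mef2a, a transcription factor of muscle and other cells, had 184, 192, 181 and 161 CPM against 277, 309.6, 248 and 299 CPM (log2 change 0.66 ± 0.08).

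Vessel genes were slightly higher. Of 20 tested endothelial genes 2 rose, 19 were higher and 10 had an unadjusted p under 0.05, with a list median of 0.25, and DESeq2 called 5. VE-cadherin, Cdh5, which joins endothelial cells, had 199, 196, 186 and 207 CPM in Sham and 229, 287, 249 and 267 CPM in OVXE2 (log2 change 0.39 ± 0.08). The apelin receptor, Aplnr, had 148, 136, 151 and 164 CPM against 198, 241, 274 and 221 CPM (log2 change 0.64 ± 0.12). Neither group pair overlapped, but the Cdh5 call was lost in each of the 12 fits without a library other than that without OVXE2 1 (adjusted p up to 0.161). Aplnr no longer passed without any 1 Sham library, or OVX 2 or 4, or OVXE2 2, 3 or 4 (up to 0.117). Of 9 genes of pericytes and smooth muscle, Rgs5 and Abcc9, both markers of pericytes, rose. Rgs5 had 469, 487, 583 and 534 CPM against 674, 649, 698 and 752 CPM (log2 change 0.42 ± 0.08), and Abcc9 had 68, 66.9, 67.6 and 66.1 CPM against 106, 149, 96.8 and 112 CPM (log2 change 0.79 ± 0.15). Their calls were lost without Sham 1, 2 or 4, or OVX 2, 3 or 4, or any 1 OVXE2 library (adjusted p up to 0.135) and without any 1 Sham library, or OVXE2 1, 2 or 4 (up to 0.091).

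Among genes of bone cells, 1 of the 14 tested osteoblast genes rose by edgeR and 0 fell, and the list median was 0.11. A log2 change above 0 was found for 12 and one below for 2, and 3 were higher at an unadjusted p under 0.05. DESeq2 also called 1 as rising. None passed with only the Sham and OVXE2 libraries, with the replicate block or with the other-strand share as covariate. The number that rose ranged from 0 to 1 over the 12 fits without a library. Osteocalcin, Bglap, the late product of osteoblasts, ranged from 361 to 834 CPM in Sham and from 439 to 1053 CPM in OVXE2 (log2 change 0.05, interval −0.75 to 0.84). Of 12 tested osteoclast genes none passed by edgeR, DESeq2 or any alternative, with a list median of 0.09 and 1 member higher at an unadjusted p under 0.05. Cathepsin K, Ctsk, which digests bone collagen, had 3515, 3694, 3293 and 3798 CPM in Sham and 3572, 3868, 4024 and 3133 CPM in OVXE2 (log2 change 0.03, interval −0.28 to 0.34). The acid phosphatase Acp5 had 3481, 3152, 3072 and 4163 CPM against 3759, 3426, 4755 and 3208 CPM (log2 change 0.13, interval −0.31 to 0.57). Both pairs of groups overlapped, and the intervals exclude changes of 2-fold.

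Of 9 osteocyte genes none passed by edgeR, 2 were higher at an unadjusted p under 0.05 and DESeq2 called 2. Sclerostin, Sost, the Wnt inhibitor made by osteocytes, had 273, 209.7, 228 and 165 CPM in Sham and 279.6, 159, 197 and 239.8 CPM in OVXE2 (log2 change 0.00, interval −0.43 to 0.43), and the matrix protein gene Dmp1 had a log2 change of 0.25 (interval −0.03 to 0.54). RANKL, Tnfsf11, the ligand that drives osteoclast formation, had 36.1, 38.2, 50.1 and 40.2 CPM in Sham and 25.5, 33.1, 32.7 and 39.5 CPM in OVXE2. The groups overlapped and the log2 change of −0.33 (interval −0.66 to 0.00) did not pass (edgeR adjusted p = 0.577). Of 8 osteoclast regulators none passed, with 2 higher at an unadjusted p under 0.05 and 0 called by DESeq2. Lists of adipocytes (10 genes), periodontal ligament and tendon (9), teeth (10) and cartilage (9) held no gene past the test by edgeR, with medians of −0.12, −0.15, 0.21 and 0.23. They had 1, 3, 1 and 2 members with an unadjusted p under 0.05, and DESeq2 called 0, 0, 0 and 0.

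Signals of the marrow niche were measured beside the blood cell genes. Of 14 niche genes none passed by edgeR and 1 by DESeq2, with 1 higher and 1 lower at an unadjusted p under 0.05. Interleukin 7, Il7, the growth factor of B cell precursors, had 1.78, 1.28, 1.89 and 1.46 CPM in Sham and 1.9, 1.79, 1.75 and 1.89 CPM in OVXE2 (log2 change 0.19, interval −0.24 to 0.62). Cxcl12, the chemokine that holds progenitors in marrow, had 572, 440.01, 476 and 492 CPM against 363, 388, 463 and 503 CPM (log2 change −0.21, interval −0.49 to 0.08), with overlapping groups. Its receptor Cxcr4 fell, with 95.3, 96.4, 94.1 and 95.9 CPM in Sham and 55.2, 63.5, 63.8 and 77.2 CPM in OVXE2 (log2 change −0.56 ± 0.10, edgeR adjusted p = 0.0235). The Sham values of Cxcr4 were nearly equal, and the gene no longer passed without any 1 Sham library, or OVXE2 1 or 2 (adjusted p up to 0.0771). Of 36 tested chemokines and receptors, 2 fell, Cxcr4 and Ccl17, 30 were lower, and 13 were lower at an unadjusted p under 0.05, with a list median of −0.37. Ccl17, a ligand for T cells, had a log2 change of −2.46 ± 0.50 and kept its call, of the 12 fits without a library, in those without OVX 1 and OVX 3 (in the others the adjusted p reached 0.155).

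Of 23 tested estrogen response genes 2 rose, Pgr and Stc2, and 1 fell, Myb, which this list shares with the blood progenitors. The list median was −0.05. Stanniocalcin 2, Stc2, had 17.5, 15.3, 17.4 and 14.4 CPM in Sham and 23.8, 25.8, 26.4 and 23.7 CPM in OVXE2 (log2 change 0.63 ± 0.12), a call lost without any 1 Sham library, or OVX 4, or any 1 OVXE2 library (adjusted p up to 0.114). The estrogen receptor gene Esr1 had 18.3, 16.5, 19.3 and 19.2 CPM in Sham and 12.3, 19.95, 15.7 and 15 CPM in OVXE2, overlapping groups with a log2 change of −0.22 (interval −0.49 to 0.05). Of 17 tested inflammatory cytokines none passed by edgeR, while 2 had an unadjusted p under 0.05 and DESeq2 called 2, all lower, with a list median of −0.27. Interleukin 1 beta, Il1b, had 198, 194, 238 and 309 CPM against 112, 113, 238 and 233 CPM (interval of the log2 change −1.06 to 0.19), Il6 had a log2 change of −0.58 (interval −1.32 to 0.15) and Il17a one of −0.53 (interval −1.77 to 0.71). The interval of each of these 3 holds both no change and a decrease of 2-fold. Of 26 cell cycle genes none passed by edgeR and 0 by DESeq2, with 3 lower at an unadjusted p under 0.05, and Mki67, which marks dividing cells, had a log2 change of −0.03 (interval −0.54 to 0.48). Hmgb2, a chromatin protein of dividing progenitors, fell from 139.8, 142, 118 and 107 CPM to 76.4, 90.2, 84.1 and 85.5 CPM (log2 change −0.59 ± 0.09, edgeR adjusted p = 0.012). Of 23 interferon response genes none passed by edgeR and 0 by DESeq2, with 4 lower at an unadjusted p under 0.05. Lists of steroid and nuclear receptors (19 tested genes), matrix proteases (21), TGF-beta and BMP signalling (26), angiogenesis and Notch (17), pattern recognition (21), complement (13), immediate early genes (13), hypoxia and glycolysis (17) and heat shock proteins (12) likewise held no gene past edgeR's test. Their medians lay between −0.20 and 0.18. At an unadjusted p under 0.05 these 9 lists held 5, 1, 6, 3, 2, 1, 3, 1 and 1 members in the order given, and DESeq2 called 1, 0, 1, 1, 0, 1, 0, 0 and 0.

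Single genes of other roles fell strongly. Mogat2, an enzyme of triglyceride synthesis and the 1 gene past the test of 15 on the lipid list, had 4.28, 4.42, 3.25 and 2.72 CPM in Sham and 0.668, 1.01, 1.03 and 1.05 CPM in OVXE2 (log2 change −1.96 ± 0.25, edgeR adjusted p = 0.00316). Slc12a3, the thiazide-sensitive sodium-chloride cotransporter, had 1.33, 0.769, 1.02 and 0.892 CPM against 0.0351, 0.0745, 0.045 and 0.281 CPM (log2 change −3.12 ± 0.52), with a call lost without Sham 1, or OVXE2 2 (adjusted p up to 0.0688). Plac8, a protein of myeloid and lymphoid cells, had 105, 91.1, 75.5 and 81.9 CPM against 36.3, 38.7, 45.4 and 37.4 CPM (log2 change −1.16 ± 0.12, edgeR adjusted p = 0.000858).

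Of the 143 genes, 29 had another of them within 300 kb, in 19 pairs. In 17 pairs both genes moved in the same direction. Some genes are in more than 1 pair. How often other sets of tested genes hold such pairs was not computed, so these counts do not show clustering. Pi15 and Crispld1, relatives of the CAP family, are 96.1 kb apart on chromosome 1 and both rose, Crispld1 with a log2 change of 0.79 ± 0.12 (6.06, 5.71, 6.5 and 7.23 CPM in Sham and 10.7, 11.5, 10.5 and 11.5 in OVXE2). Rag2 and Rag1 are 5.8 kb apart, Prtn3 and Elane 3.1 kb, and Siglecf, Siglecg and Nkg7 lie within one stretch of chromosome 7, with gaps of 48.7 and 18.7 kb. The 2 pairs of opposite direction were P2rx3 with Aplnr and Acap1 with Mgl2. Genes of such pairs are not independent observations.

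Markers of tissues that could be carried over in dissection were summed per library. Markers of sensory ganglia took 0.00533 to 0.0270% of gene counts in Sham, highest in Sham 4, and 0.00422 to 0.00696% in OVXE2. Of 9 tested ganglion genes the receptor gene P2rx3 fell (log2 change −1.80 ± 0.35), all 9 were lower and the median was −1.80. The P2rx3 call was lost without Sham 1, 3 or 4, or OVX 2, 3 or 4, or any 1 OVXE2 library (adjusted p up to 0.115). Without the 2 libraries with the most ganglion counts its log2 change was −1.68 (edgeR adjusted p = 0.0695). With the replicate block it was −1.82 (edgeR adjusted p = 0.0811), and with only the Sham and OVXE2 libraries −1.81 (edgeR adjusted p = 0.0849). P2rx3 did not pass in these 3 fits. Nor did it pass with only libraries of higher other-strand share or with that share as covariate. The call was also lost without the libraries with most nasal gland or most brain neuron counts. Markers of nasal glands took 0.452 to 2.64% in Sham and 0.459 to 0.938% in OVXE2, and those of brain neurons 0.00596 to 0.0568% and 0.00745 to 0.0199%. In the OVX libraries, which were part of the same fit, nasal gland markers took 0.318 to 14.0%, highest in OVX 1. All 12 Schwann cell genes were lower, with a median of −0.31 and shares of 0.0415 to 0.0655% against 0.0336 to 0.0501%, but none passed by edgeR, 4 had an unadjusted p under 0.05, and DESeq2 called 1. Epithelial markers took 0.147 to 0.349% in Sham and 0.133 to 0.957% in OVXE2, highest in OVXE2 1. No tested gene of brain neurons (13), olfactory epithelium (6), nasal glands (18), salivary glands (3), epithelium (10) or skeletal muscle (10) passed by edgeR, where 1, 0, 3, 0, 1 and 1 members had an unadjusted p under 0.05 and DESeq2 called 0, 0, 1, 0, 0 and 1. Without the 2 libraries with the most ganglion counts (Sham 4 and OVX 1) 105 genes passed, without the 2 with the most nasal gland counts (Sham 3 and OVX 1) 68, and without the 4 with the most brain neuron counts (Sham 2, Sham 4, OVX 1 and OVXE2 2) 37. The genes of B cell precursors that fell numbered 7, 6 and 6 in these fits and the primary granule genes 9, 7 and 3.

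The share of counts on the other strand differed between libraries too. In the 8 DAC libraries with the higher share (Sham 1 to 3, OVXE2 1 to 3 and OVX 3 and 4) 16 genes passed, among them 2 of the B cell precursor genes and 0 of the primary granule genes by edgeR, where Mpo had a log2 change of −1.84 (adjusted p = 0.058). With the share as a covariate in all 12 libraries, 62 genes passed, with 6 precursor and 5 primary granule genes among them.

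**Figure D4:**
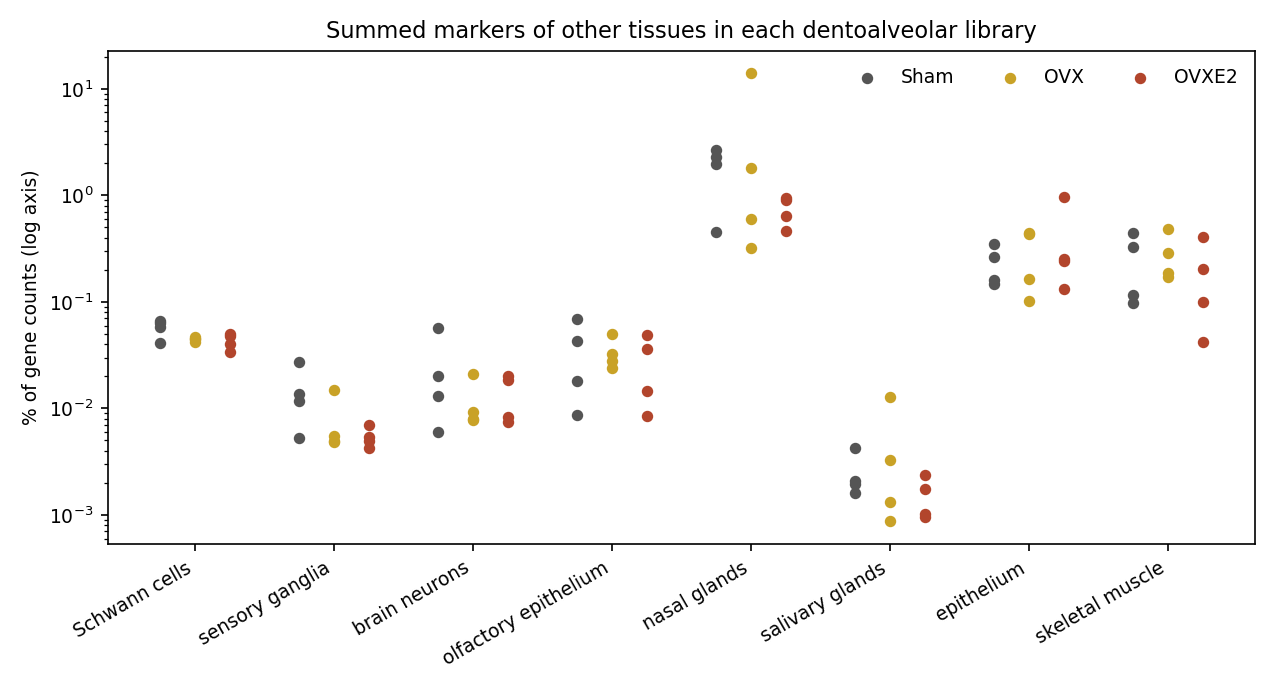
Percent of gene counts taken by marker lists of other tissues (vertical, log axis) in each DAC library, by group. Ganglion and nasal gland shares reach higher in Sham (0.0270 and 2.64%) than in OVXE2 (0.00696 and 0.938%). The highest nasal gland share of the DAC libraries is that of OVX 1 (14.0%).

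In gingiva, the same comparison of 4 OVXE2 with 4 Sham libraries gave no gene past edgeR's test among 12680 (0.0%), with 939 (7.41%) at an unadjusted p under 0.05. The difference of the 2 tissues' log2 changes was tested itself, in 1 fit over all 24 libraries. Of 14209 genes, 9 passed (0.0633%). It is not stated whether DAC and gingiva came from the same mice. Pi15 rose more in the DAC, by 2.46 ± 0.39 log2 units (edgeR adjusted p = 0.0102), and in gingiva had 14.1, 9.24, 7.25 and 5.97 CPM in Sham and 13.4, 14.9, 12.9 and 12.3 CPM in OVXE2. Whrn had 7.42, 6.91, 10.6 and 6.74 CPM against 6.29, 6.36, 7.96 and 7.88 CPM in gingiva, overlapping groups, and a difference of 1.11 ± 0.17 (edgeR adjusted p = 0.00633). Rhobtb1 had 25.4, 23.8, 24.6 and 26.5 CPM in Sham and 39.5, 50.6, 39.1 and 40.8 CPM in OVXE2 in the DAC, and 34, 37.4, 47.7 and 38.1 CPM against 35, 28.9, 31.9 and 31.1 CPM in gingiva. It rose in the DAC, its gingival log2 change was −0.31 ± 0.11, and the difference was 1.10 ± 0.16 (edgeR adjusted p = 0.00403).

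Tenm4 differed by 1.21 ± 0.22 and Znhit6 by 0.71 ± 0.13, both higher in the DAC. Among genes lower in the DAC, Fam129c differed by −2.04 ± 0.28 (edgeR adjusted p = 0.00403) with gingival values of 1.76, 2.09, 2.45 and 2.5 CPM in Sham and 2.28, 2.37, 1.77 and 2.31 CPM in OVXE2. Plac8 differed by −1.33 ± 0.22, Adap1 by −1.05 ± 0.19 and Cst7 by −2.18 ± 0.40. Fam129c, Rhobtb1, Whrn and Pi15 passed in all 16 fits that left out 1 of the Sham or OVXE2 libraries, and Plac8 in 15. Without gingival OVXE2 2, Plac8 had an adjusted p of 0.0509. The other 4 calls were lost in most of these fits: Tenm4 passed in 3 of 16 (adjusted p up to 0.116), Znhit6 and Adap1 in 4 each (up to 0.0965) and Cst7 in 4 (up to 0.122). The count of genes was 37 without DAC OVXE2 3, and 4, 5, 5 and 5 without gingival OVXE2 2, 1, 3 and 4. Genes with large changes in the DAC did not all pass this test: A2m had a difference of 1.78 ± 0.50 (adjusted p = 0.277), Trpc6 1.29 ± 0.26 (adjusted p = 0.0695), Pgr 2.42 ± 0.46 (adjusted p = 0.0545) and Vpreb3 −3.93 ± 1.05 (adjusted p = 0.24). Pgr had 22.5, 20.9, 17.1 and 34.2 CPM in gingival Sham and 30.2, 20.2, 26.9 and 25.4 CPM in gingival OVXE2, a log2 change of 0.11 ± 0.19. CPM are scaled within each tissue. Mgl2 had a difference of 0.22 ± 0.27 (adjusted p = 0.883).

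**Figure D5:**
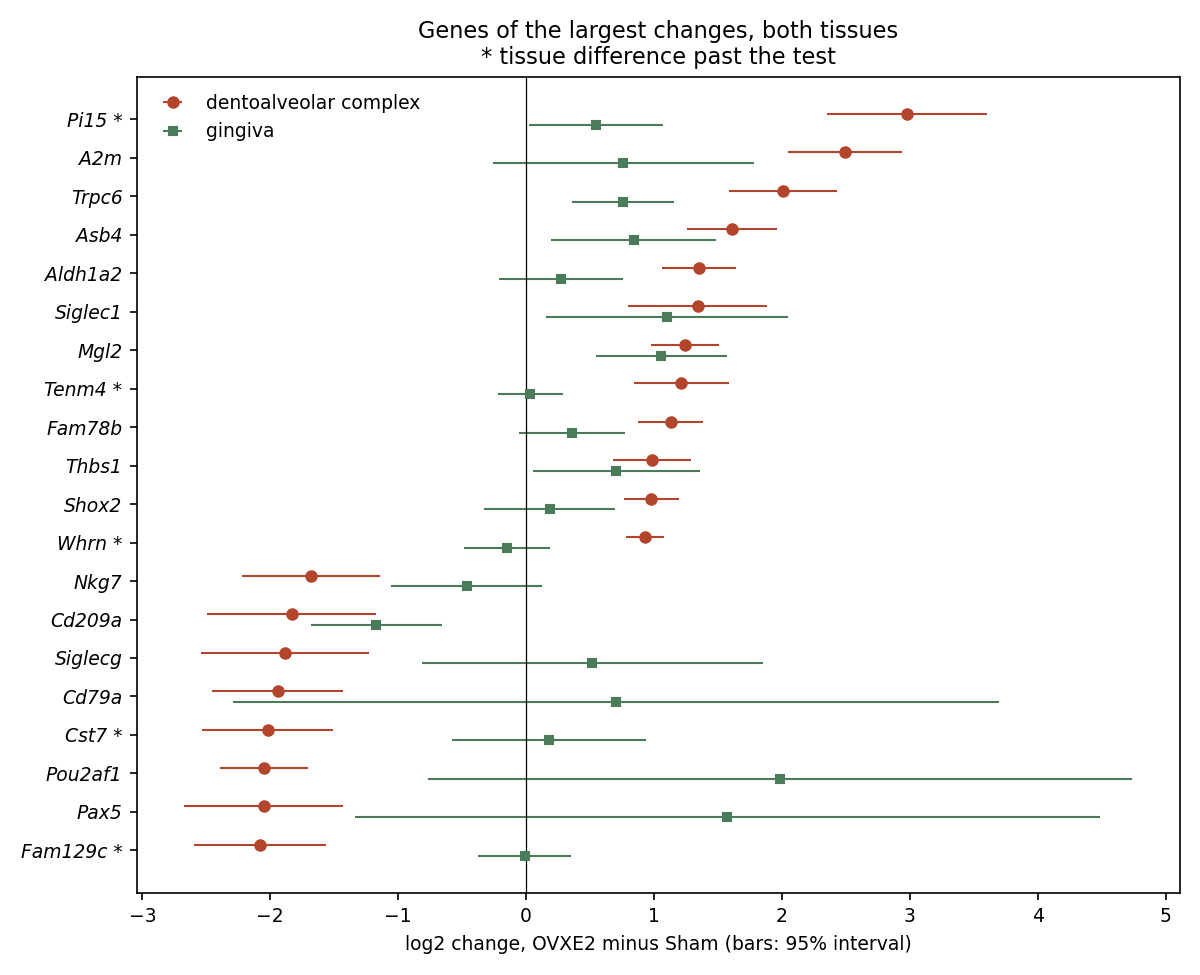
Log2 change of OVXE2 against Sham with its 95% interval in the DAC and in gingiva for 20 genes with the largest changes in the DAC that were tested in both tissues; an asterisk marks a difference between tissues past the test. Pi15 and Tenm4 are among the marked genes, and the gingival interval includes 0 for 13 of the 20.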

How the data were processed

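Per the labels, poly(A) RNA was sequenced in paired-end mode from the DAC and gingiva. The submitters' processing notes name fastp, STAR and DESeq2 and the build GRCm38 (mm10). Their versions and settings were not stated. The deposited values are raw gene counts, 1 table per library with 38321 gene IDs, of which 38186 were named with GENCODE M21. Counts came from the opposite-strand column, which held the larger part of the reads, and the 4 lines of unassigned reads were left out.

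Low counts were removed with filterByExpr, libraries were scaled by TMM, and OVXE2 was compared with Sham by edgeR 4.0.16 (quasi-likelihood test, R 4.3.3) in a fit over all 12 DAC libraries, which share 1 estimate of the spread with 9 residual degrees of freedom (biological coefficient of variation 0.305). P-values were adjusted over all genes by the Benjamini-Hochberg method, with a threshold of 0.05. Log2 changes are those of the edgeR fit, and a prior count of 2 was used for log2 CPM values only. The difference between tissues was fitted over all 24 libraries with 18 residual degrees of freedom. Counts of 13524 genes were simulated for the 12 DAC libraries, with changes placed in the 4 OVXE2 libraries. The test recovered 28.4, 47.8 and 83.3% of genes changed by 1.5, 2 and 4-fold, with 3 false calls. On 14141 genes the tissue difference recovered 20.0, 56.7 and 78.1%, with 4 false calls.

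Lists held 1028 symbols, of which 764 were listed in the counts. Lists of class II antigen presentation and of mitochondrial transcripts had no listed gene and were not analysed here. Of 54 lists 52 had tested members, 21 with a member past the test and 31 without. Named genes are the 15 largest rises and the 15 largest falls past the test with groups that do not overlap, a mean log2 CPM of 1 or more and no predicted-gene or receptor-segment name, up to 4 called members of each list (or up to 2 as values), and a panel. Ptprq, Evx1, Evx1os, Crispld1, Rhobtb1, Plac8, Adap1, Znhit6, Plod2, Fn1, Mef2a, Lrmp, Map4k1, Hmgb2, Slc12a3, Elane, Cebpe, Cd79b, Klrb1b, Acap1, Bach2, Lef1, Cd24a, Bcl11a, Ebf1, Prss57, Gfi1 and the neighbours of Pgr were named outside that rule after their values were seen, and the promoter of Trpc6 was added as the neighbour of Pgr. Some genes that the rule names are not reported here. The members, lists and alternatives were chosen with earlier results of these data known. Promoter windows are RefSeq sequences of GRCm38.p6, searched on both strands. Alternatives were DESeq2 1.42.0, other size factors, limma-voom (limma 3.58.1), no filter, counts of either strand, subsets of libraries, a replicate block, the other-strand share as covariate and leaving out each library. Total gene counts of 14771830 to 29248358 per DAC library set the precision, and low genes such as Pgr and Rag2 rest on few counts.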

Additional observations from a re-analysis of the deposited data

Results flagged for a closer look

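Within the 4 OVXE2 libraries, 1 library lay far from the other 3 for 6 of the printed genes, out of 154 gene and group combinations checked, where chance gives about 1 in 20. These were Fcrla in OVXE2 4 (4.14 CPM, highest), Lrp4 in OVXE2 2 (345 CPM, highest), Cst7 in OVXE2 3 (3.19 CPM, highest), Mogat2 in OVXE2 1 (0.668 CPM, lowest), Rhobtb1 in OVXE2 2 (50.6 CPM, highest) and Slc12a3 in OVXE2 4 (0.281 CPM, highest). The summed share of epithelial markers was likewise far above the others in OVXE2 1 (0.957%).

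For 9 genes the log2 change between OVXE2 and Sham differed between the DAC and gingiva by the test of that difference (edgeR, Benjamini-Hochberg adjusted). The difference, DAC less gingiva, was −2.04 for Fam129c, 1.10 for Rhobtb1, 1.11 for Whrn, 2.46 for Pi15, −1.33 for Plac8, −1.05 for Adap1, 0.71 for Znhit6, 1.21 for Tenm4 and −2.18 for Cst7, with adjusted p from 0.00403 to 0.0370.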

How the results depend on the processing

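All of the 143 genes with a value kept the sign of their change in every alternative run. Against 143 genes past the test (53 rose, 90 fell), DESeq2 called 340 (144 and 196), the fit with only Sham and OVXE2 libraries 64 (29 and 35), the fit with only libraries of higher other-strand share 16 (7 and 9), the other-strand share as covariate 62 (23 and 39), and the fits without the 2 libraries with most nasal gland counts 68 (29 and 39) and without the 4 with most brain neuron counts 37 (14 and 23). Fits on fewer libraries have fewer residual degrees of freedom, and the cause of the other differences was not tested. Leaving out each library in turn gave 61 to 164 genes, with 21 to 65 rising and 39 to 99 falling. The count under other size factors (146), counts for either strand (142), limma-voom (137), no filter (124) and without the 2 libraries with most ganglion counts (105) stayed within 1.5 times. For the difference between tissues, 9 genes became 70 with DESeq2, 17 with counts for either strand, 5 with only the 16 Sham and OVXE2 libraries, and 4 to 37 when each library was left out.

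The labels do not say whether replicate numbers pair the libraries. The deviations of same-numbered Sham and OVXE2 libraries correlated at −0.05, 0.23, 0.02 and 0.26 over 5000 genes. Those of different numbers correlated at −0.34 to 0.21. Libraries numbered 2 and 4 correlated best with their own number, and not every other library did. These few correlations cannot decide whether libraries are paired. With the replicate number as a block, 101 genes passed, 89 of them among the 143, with 38 rising and 63 falling, and 11 passed for the difference between tissues.

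Depth limits the genes of low level: Pgr, Ptprq, Evx1 and Rag2 had at most a few CPM. By the simulation 47.8% of genes changed by 2-fold are found in this design. That share is over genes of all levels and was not computed for genes of low level.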
